A study of Mus musculus with 12 samples.

Results

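The genes described here are 9 fatty acid desaturases and elongases of the mouse: Scd1, Scd2, Fads1, Fads2, Fads3, Elovl1, Elovl3, Elovl5 and Elovl6. They were taken by name from the 24888 gene entries of each library, each was listed at 1 locus, and all 9 had a value in all 12 libraries. The values are FPKM, fragments scaled to transcript length and to library size, so levels of different genes can be set side by side.

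RNA of cultured adipocytes was sequenced in 6 groups of 2 libraries. In 4 groups, preadipocytes of inguinal white adipose tissue from C57BL/6 mice, either WT or ATF7 KO, were differentiated with rosiglitazone (named beige) or without it (named white). Rosiglitazone is a drug that activates the nuclear receptor PPARγ. In the other two groups, C3H10T1/2 cells, an established mouse mesenchymal line that can become adipocytes, were differentiated with rosiglitazone, either as control or with ATF7 overexpressed, so both of these groups carry the drug. ATF7 is a transcription factor of the ATF and CREB family. The labels give neither age nor sex of the mice, nor how the KO or the overexpression was made, and they do not say whether the 2 libraries of a group come from separate cultures or animals. P-values therefore measure the spread between these libraries, which may be technical.

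The target gene did not separate the primary genotypes. Atf7 had 7.80 and 7.83 FPKM in the beige WT libraries against 7.26 and 7.94 in the beige KO libraries. In white cultures the WT libraries had 9.10 and 7.10 FPKM and the KO libraries 6.88 and 7.73. These groups overlap, and a value over the whole gene need not show a deletion of part of it, so the primary groups are called KO-labelled below. In C3H10T1/2, Atf7 stood at 8.52 and 9.09 FPKM in the control and at 41.2 and 39.1 with overexpression. Each library summed to 225536 to 272371 FPKM and had 9844 to 10877 entries at 1 FPKM or more. The number of reads behind a value is unknown, so no counting error is given.

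The primary cultures also differed in their cell type markers. The summed level of 12 macrophage markers was 24.3 to 29.0 FPKM in the 4 beige libraries, 499.5 to 765.8 in the 4 white libraries and 1.09 to 1.73 in C3H10T1/2, where 6 to 10 of the 12 were listed at 0. The 10 preadipocyte or stromal markers summed to 141.1 to 155.7 FPKM in beige, 705.6 to 966.1 in white and 102.3 to 116.2 in C3H10T1/2. The adipocyte markers (10 genes, Fabp4 the highest) summed to 11195 to 12566 FPKM in beige, 3788 to 5753 in white and 12616 to 13734 in C3H10T1/2. Fabp4 alone stood at 8602 to 9585 FPKM in primary beige, 1940 to 3055 in white and 8926 to 9779 in C3H10T1/2. It is the largest part of each sum, so the sums mainly follow this gene. None of the 10 was at 0 in any library, which fits the labelled cell type. Ucp1, the uncoupling protein of thermogenic fat cells, was listed at 0 in all 4 white libraries and stood at 17.2 to 51.6 FPKM in primary beige. In bulk RNA, fewer cells of a type and less RNA per cell cannot be told apart.

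Desaturases and elongases shape fatty acids on the endoplasmic reticulum after the cell has made them or taken them up. A stearoyl-CoA desaturase puts the first double bond into a saturated chain and yields palmitoleate and oleate, the main unsaturated acids of mouse fat. The Fads enzymes add further double bonds nearer to the carboxyl end, and each Elovl enzyme catalyses the condensing step that lengthens chains of its preferred kind. In adipose tissue, Scd1 is a major gene of fat storage and Elovl3 is known for its high expression in brown fat and its rise in the cold.

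Of the 9 genes, 6 lie on chromosome 19 (mm10, positions counted from 1). Fads3 (chr19:10041548-10059671, plus strand), Fads2 (chr19:10064164-10101503, minus strand) and Fads1 (chr19:10182888-10196872, plus strand) span 155 kb. Scd2 (chr19:44293676-44306862, plus strand) and Scd1 (chr19:44394450-44407709, minus strand) lie in a cluster of 4 Scd genes that spans 204 kb. Elovl3 (chr19:46131899-46135694) stands alone. Elovl1 (chr4:118428093-118432952), Elovl5 (chr9:77917365-77984519) and Elovl6 (chr3:129532386-129638493) are on other chromosomes, all on the plus strand as Elovl3 is.

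The RefSeq promoter table (GRCm38.p6) matched 5 of the 9 genes: Fads2, Fads3, Elovl1, Elovl5 and Elovl6. Scd1, Scd2, Fads1 and Elovl3 were not matched. The stretches upstream of the gene start are printed for Fads3, Elovl5 and Elovl6, because these matched genes moved furthest between WT beige and WT white and did so in different directions. Each run is written 5′ to 3′ on the plus strand. The first 3 end before the first annotated exon base, and the last crosses the start of Elovl5. Capitals mark a match to one of the searched motifs: the CCAAT box, the Sp1 box GGGCGG, the TATA box TATAAA, the E-box CACGTG, the cyclic AMP response element TGACGTCA with its shorter form TGACG, the sterol element TCACCCCAC, and the nuclear receptor sequence AGGTCA, each on either strand.
Fads3 (chr19:10041298-10041547): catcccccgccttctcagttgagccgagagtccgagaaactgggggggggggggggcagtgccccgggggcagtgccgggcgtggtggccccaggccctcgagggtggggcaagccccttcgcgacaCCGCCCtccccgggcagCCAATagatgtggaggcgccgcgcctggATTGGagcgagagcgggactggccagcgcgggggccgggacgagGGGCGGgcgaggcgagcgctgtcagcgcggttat
Elovl5 (chr9:77917115-77917363): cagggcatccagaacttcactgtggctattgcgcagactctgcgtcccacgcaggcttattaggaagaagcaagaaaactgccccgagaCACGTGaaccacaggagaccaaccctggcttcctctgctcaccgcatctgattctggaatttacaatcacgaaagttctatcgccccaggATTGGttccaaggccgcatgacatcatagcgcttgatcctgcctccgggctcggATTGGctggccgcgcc
Elovl6 (chr3:129532136-129532354): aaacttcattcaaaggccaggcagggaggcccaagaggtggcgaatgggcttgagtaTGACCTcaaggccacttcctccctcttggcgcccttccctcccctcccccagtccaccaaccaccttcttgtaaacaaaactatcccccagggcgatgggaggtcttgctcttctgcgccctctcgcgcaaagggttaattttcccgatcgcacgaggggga
Elovl5 around its start (chr9:77917357-77917386): ccgcgccattgTGACGTCAcggtcagccca

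Positions are counted from the RefSeq gene start. The Fads3 stretch holds the CCAAT box once on each strand, at -106 and -78 from the gene start, and the Sp1 box at -123 on the minus strand and at -34 on the plus strand. In the Elovl5 stretch the CCAAT box is read on the minus strand at -71 and -17, and the E-box starts at -161. The Elovl6 stretch holds 1 match, the nuclear receptor sequence read on the minus strand from -193 to -188. The full cyclic AMP response element, the sequence that ATF and CREB family factors are known to bind, was found in Elovl5 alone of these 5 genes, from 4 to 11 bases into the gene, and the last run of 30 bases shows it. The shorter form TGACG overlaps it on both strands. Sp1 boxes were also found in the windows of Elovl1 and Fads2, which are not printed. Those of Elovl1 also held the CCAAT box and the nuclear receptor sequence. Neither the TATA box nor the sterol element was matched in the 5 genes. Over all 32851 promoter windows of 300 bases in the table, 37.4% held the CCAAT box, 35.7% the Sp1 box, 20.8% the shorter form TGACG, 16.3% the nuclear receptor sequence, 13.6% the TATA box, 7.15% the E-box, 0.551% the sterol element and 1.79% the full cyclic AMP response element. A match is a run of letters and does not show that a factor binds there.

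Rosiglitazone-treated and untreated primary cultures differed in 7 of the 9 genes, in opposite directions within the family. In WT, Scd1, Scd2, Fads3 and Elovl3 were higher in beige, and Fads2, Elovl5 and Elovl6 were lower. Fads1 and Elovl1 did not pass the test. The test was limma with Benjamini-Hochberg adjustment over 11294 genes at 0.05, on log2(FPKM + 1), a scale that understates changes of low genes. In this comparison 21.6% of all genes tested were called higher and 32.1% lower, so 4 higher and 3 lower of 9 stand against a background in which more than 50% of genes are called, and the count itself is no result about these genes. Their median log2 difference was 0.00, against -0.10 over all genes. The background moves with the scaling: 40.2% of all calls were higher in the values as deposited, 50.9% after quantile normalization and 51.4% after median centring, which moved the median of all genes by 0.11 each.

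The KO-labelled cultures gave the same picture gene by gene. Scd1, Scd2, Fads3 and Elovl3 were called higher in KO-labelled beige than in KO-labelled white, and Fads2, Elovl5 and Elovl6 lower, with 26.6% of all genes called higher and 34.3% lower. The median of the 9 genes was -0.05, and that of all genes -0.06. Both comparisons use their own libraries, 2 against 2.

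**Figure D1:**
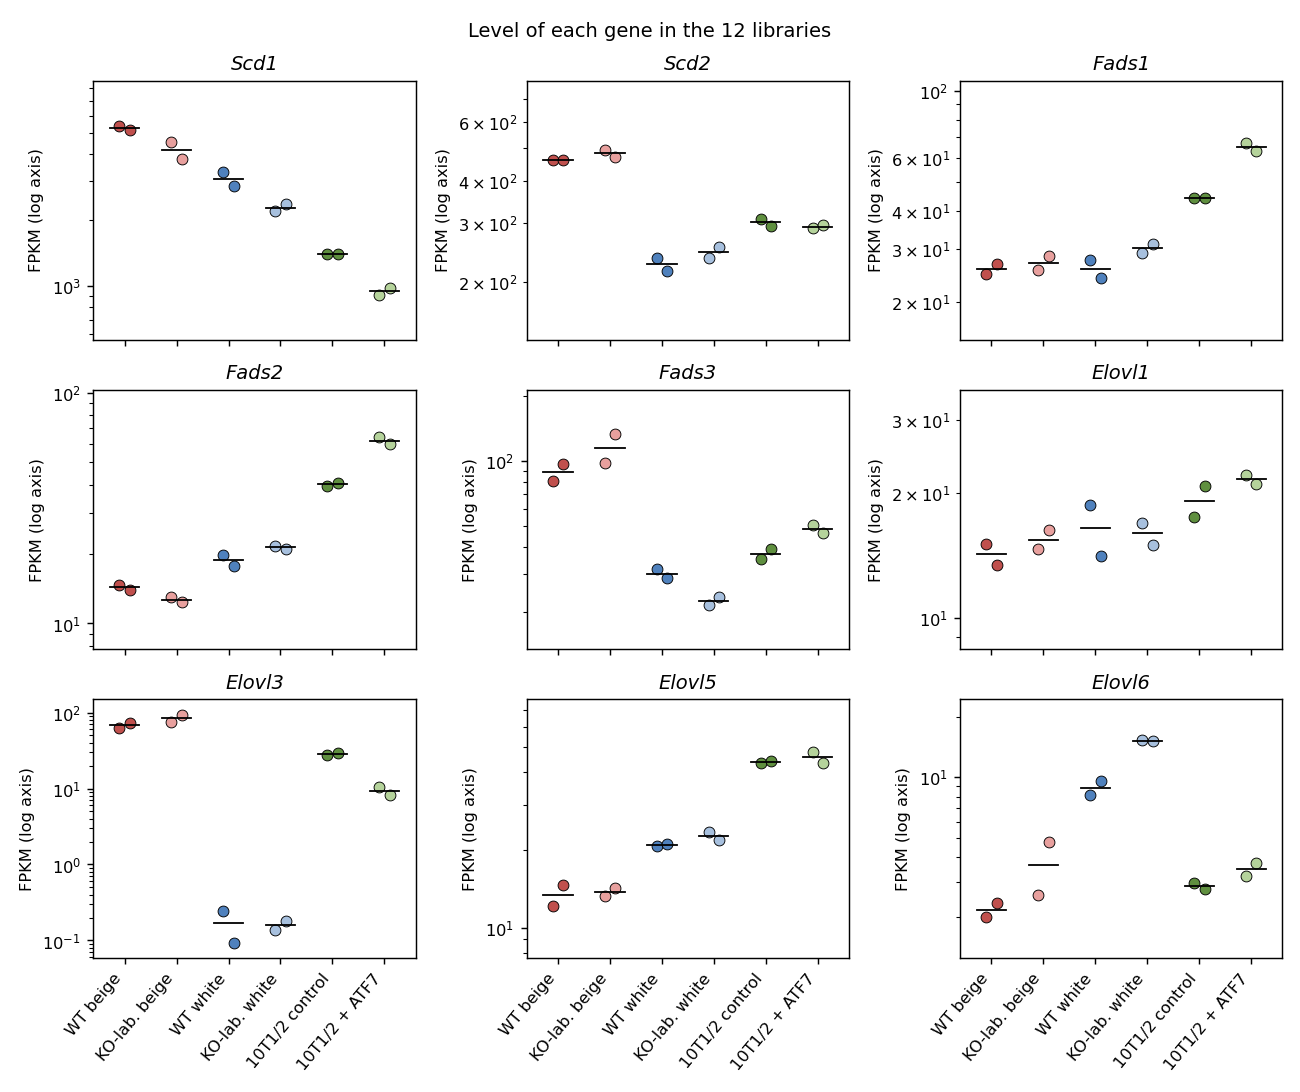
FPKM of each of the 9 genes on a log axis, 1 point per library and a line at the mean of each group of 2, with KO-labelled written as KO-lab. Elovl3 is under 1 FPKM in the 4 white libraries and at 62.7 to 92.9 in the 4 primary beige libraries, while Elovl6 is highest in the 2 KO-labelled white libraries.

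Among the stearoyl-CoA desaturases, Scd1 was one of the most abundant transcripts. It stood at 5391 and 5148 FPKM in WT beige, 4535 and 3815 in KO-labelled beige, 3304 and 2862 in WT white and 2195 and 2361 in KO-labelled white. In C3H10T1/2 it stood at 1396 and 1393 FPKM in the control and at 905 and 978 with ATF7 overexpressed. No neighbouring groups in this order overlap, from WT beige at the top to overexpressing C3H10T1/2 at the bottom. Scd1 ranked 4 to 7 among all entries of the primary libraries, took 0.962% to 2.17% of their summed FPKM, and ranked 11 to 16 in C3H10T1/2.

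The beige against white difference of Scd1 was 0.78 (log2, SE 0.16, adjusted p = 0.00346 in limma) in WT and 0.87 (SE 0.16, adjusted p = 0.00152) in KO-labelled cultures. This call was lost in some other settings. After quantile normalization the WT difference was 0.08 (adjusted p = 0.800) and the KO-labelled one 0.38 (adjusted p = 0.209). That method gives each rank a common value, and Scd1 ranked 4 in both WT beige libraries and 5 in both WT white ones. A small difference is thus largely fixed by the method and does not bear on the difference in FPKM. With no filter on low values the adjusted p was 0.221 in WT and 0.158 in KO-labelled cultures, at the differences of the main fit.

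Scd2, a second stearoyl-CoA desaturase, was less abundant but moved more evenly. It stood at 462 and 461 FPKM in WT beige, 496 and 472 in KO-labelled beige, 236 and 216 in WT white and 236 and 255 in KO-labelled white. All 4 beige libraries were above all 4 white ones, and the C3H10T1/2 libraries lay between them at 290.1 to 309 FPKM. The difference was 1.03 (SE 0.11, adjusted p = 7.49e-05) in WT and 0.98 (SE 0.11, adjusted p = 7.42e-05) in KO-labelled cultures, by limma.

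The balance of both isoforms differed between cell systems. Scd1 exceeded Scd2 by 11.7 and 11.2 times in WT beige, 9.15 and 8.08 times in KO-labelled beige, 14.0 and 13.3 times in WT white and 9.28 and 9.27 times in KO-labelled white. In the C3H10T1/2 control it did so by 4.52 and 4.73 times, and with ATF7 overexpressed by 3.12 and 3.31 times. With genotypes pooled, the log2 ratio averaged 3.31 ± 0.25 (SD, n = 4) in primary beige and 3.49 ± 0.32 (SD, n = 4) in white. The difference was -0.18, with p = 0.429 in a two-sided exact permutation test, whose smallest p is 0.0286. Pooling puts the gap between genotypes into these SDs, so the test does not compare culture types within a genotype. In WT and in KO-labelled cultures alike, both beige libraries had a lower ratio than both white ones, which was not tested. Each KO-labelled group also had a lower ratio than the WT group of its own culture type, which was not tested either.

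Scd3, a further gene of the cluster and not one of the 9, was far less abundant. It stood at 7.99 to 11.8 FPKM in the 4 primary beige libraries and at 0.762 to 0.977 in the 4 white ones, a log2 difference of 2.25 in WT (adjusted p = 1.7e-06, limma). Of the windows of 36 bases in annotated Scd3 transcripts, 11.9% occur in transcripts of another gene, mostly Scd1. For Scd1 the share is 7.02% and for Scd2 5.90%, so reads could be split between these genes. These shares do not bound the error of a value. Scd1 stood at 3815 to 5391 FPKM in the primary beige libraries, so a small part of its reads could make up much of the Scd3 value. How much of the Scd3 level and difference comes from such reads was not tested. Scd4 did not pass the filter of 1 FPKM in 2 libraries.

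The Fads genes split between the beige and white cultures although they are neighbours. Fads3, which desaturates the sphingoid base of ceramides, was higher in beige. It stood at 80.5 and 96.5 FPKM in WT beige, 97.5 and 133 in KO-labelled beige, 31.5 and 28.7 in WT white and 21.5 and 23.3 in KO-labelled white. The 8 primary libraries fall into 4 groups that do not overlap, with KO-labelled beige highest and KO-labelled white lowest. The difference was 1.52 (SE 0.16, adjusted p = 5.84e-05) in WT and 2.30 (SE 0.16, adjusted p = 3.75e-06) in KO-labelled cultures, by limma.

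Fads2, which catalyses the first desaturation of linoleic and α-linolenic acid, was lower in beige. It stood at 14.7 and 13.9 FPKM in WT beige, 13.0 and 12.4 in KO-labelled beige, 19.8 and 17.8 in WT white and 21.6 and 21.1 in KO-labelled white. All 4 beige libraries were below all 4 white ones. The limma difference was -0.37 (SE 0.09, adjusted p = 0.00948) in WT and -0.71 (SE 0.09, adjusted p = 0.000193) in KO-labelled cultures. Without the second WT beige library the WT difference was -0.33 and no longer called (adjusted p = 0.0757).

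Fads1, which acts later on the same pathway and completes arachidonic acid, stood at 24.7 and 26.8 FPKM in WT beige, 25.5 and 28.4 in KO-labelled beige, 27.5 and 24.0 in WT white and 29.1 and 31.0 in KO-labelled white. The 2 WT groups overlap. The WT difference was 0.00 with a 95% interval from -0.24 to 0.25, and its sign changed under quantile normalization (-0.06) and when small RNA genes were left out (-0.08). Fads1 exceeded Fads2 by 1.67 to 2.29 times in the 4 primary beige libraries, 1.35 to 1.47 times in the 4 white ones and 1.05 to 1.12 times in C3H10T1/2. Of the FPKM summed over Fads1, Fads2 and Fads3, Fads3 made up 67.1% to 76.5% in primary beige, 29.7% to 40.7% in white and 27.4% to 31.4% in C3H10T1/2. The Fads3 level itself was higher in all 4 C3H10T1/2 libraries, at 35.3 to 50.3 FPKM, than in the white ones, at 21.5 to 31.5, and their Fads1 and Fads2 levels were higher too.

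Among the elongases, Elovl3 showed the widest range of the 9 genes. This enzyme lengthens saturated and monounsaturated chains. It stood at 62.7 and 73.7 FPKM in WT beige, 75.3 and 92.9 in KO-labelled beige, 0.243 and 0.0932 in WT white and 0.137 and 0.179 in KO-labelled white. In the C3H10T1/2 control it stood at 27.4 and 29.0 FPKM and with overexpression at 10.4 and 8.19. The WT and KO-labelled white libraries overlap, and every library with rosiglitazone was above every library without it. The log2(FPKM + 1) difference was 5.89 (SE 0.13, adjusted p = 4.54e-08) in WT and 6.19 (SE 0.13, adjusted p = 2.56e-08) in KO-labelled cultures, by limma.

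Elovl6, which lengthens palmitate to stearate and so makes the substrate of the stearoyl-CoA desaturases, was lower in beige. It stood at 2.00 and 2.36 FPKM in WT beige, 2.60 and 4.74 in KO-labelled beige, 8.18 and 9.52 in WT white and 15.2 and 15.1 in KO-labelled white. All 4 white libraries were above all 4 beige ones, and the C3H10T1/2 libraries, at 2.76 to 3.71 FPKM, lay within the range of the beige ones. The difference was -1.63 (SE 0.19, adjusted p = 0.000132) in WT and -1.83 (SE 0.19, adjusted p = 4.95e-05) in KO-labelled cultures, by limma. Annotated Elovl6 transcripts share 5.65% of their windows of 36 bases with another gene, mostly the predicted gene Gm11295.

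Elovl5, which lengthens polyunsaturated chains between the Fads2 and Fads1 steps, was also lower in beige. It stood at 12.2 and 14.6 FPKM in WT beige, 13.3 and 14.2 in KO-labelled beige, 20.8 and 21.1 in WT white and 23.4 and 21.8 in KO-labelled white. The difference was -0.61 (SE 0.11, adjusted p = 0.00138) in WT and -0.68 (SE 0.11, adjusted p = 0.000594) in KO-labelled cultures, by limma. Fads2 and Elovl5, which act in turn on the same polyunsaturated chains, were thus lower in beige together, with Fads1 not called. Both were higher in the C3H10T1/2 control than in any primary library, Elovl5 at 43.7 and 44.1 FPKM and Fads2 at 39.5 and 40.7.

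Elovl1, which makes very long saturated and monounsaturated chains, was not called in either genotype. It ranged from 13.4 to 18.7 FPKM over the 8 primary libraries and from 17.5 to 22.2 in C3H10T1/2. The WT difference was -0.18 with a 95% interval from -0.50 to 0.14, and the groups overlap. Without the second WT white library it was -0.37 and called (adjusted p = 0.0483).

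**Figure D2:**
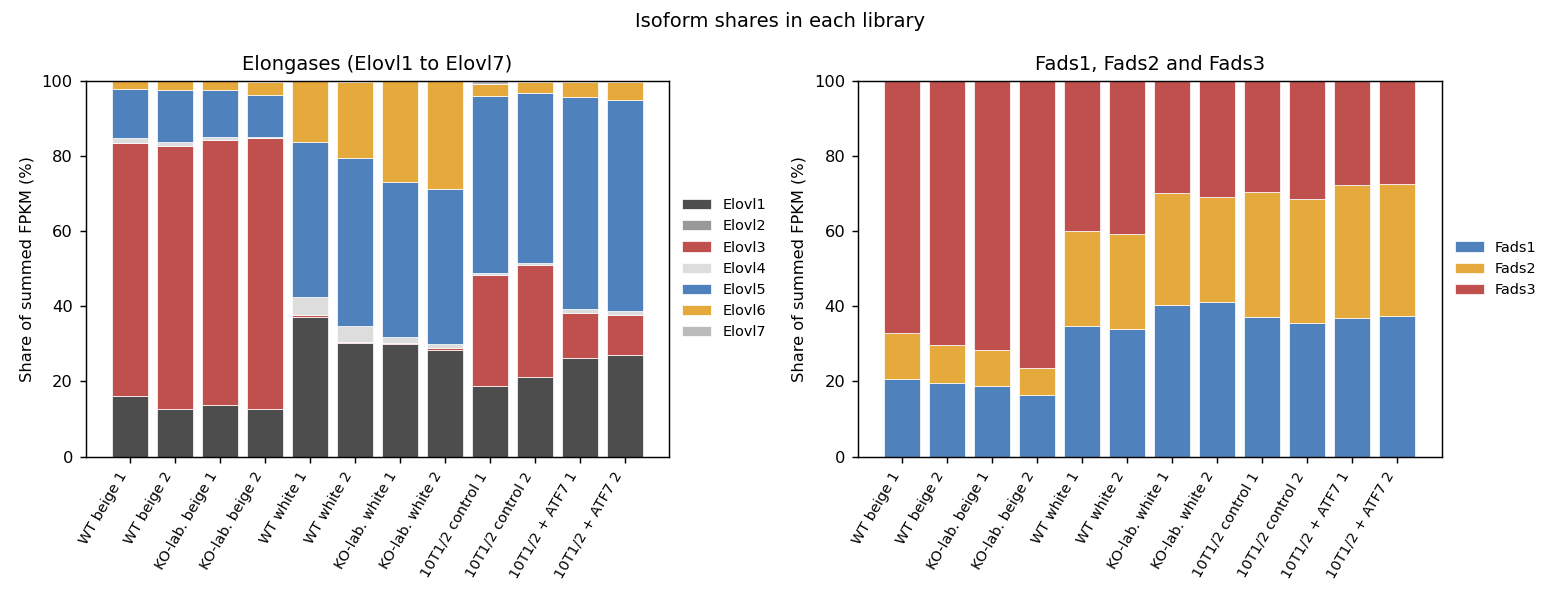
Share of each gene in the FPKM summed over Elovl1 to Elovl7 (left) and over Fads1 to Fads3 (right), 1 bar per library, with KO-labelled written as KO-lab. Elovl3 fills 67.3% to 72.2% of the elongase bar in primary beige and under 1% in white, where Elovl5, Elovl1 and Elovl6 share it.

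Elovl3 led the elongase pool in primary beige, and Elovl5 led it in white and in C3H10T1/2. Elovl3 made up 70.02% ± 2.05 (SD, n = 4) of the FPKM summed over Elovl1 to Elovl7 in primary beige and 0.316% ± 0.126 (SD, n = 4) in white. Elovl6 made up 2.63% ± 0.71 (SD, n = 4) in beige and 23.0% ± 5.76 (SD, n = 4) in white. For either share the two-sided exact permutation test over the 8 libraries, genotypes pooled, gave p = 0.0286, the smallest it can give, or 0.0429 adjusted over the 3 ratios and shares tested. Both shares have Elovl3 in their sum, so more Elovl3 lowers every other share and these tests are not independent. The share of Elovl1, whose level was not called, was 14.5% in WT beige and 33.6% in WT white. The share of Elovl5 was 41.2% to 45.0% in white cultures and 45.1% to 56.5% in C3H10T1/2, where that of Elovl3 was 29.6% in both control libraries and 10.6% and 12.2% with overexpression. The pool itself summed to 93.1 to 128.7 FPKM in primary beige and to 46.9 to 56.7 in white.

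The other elongases were low. Elovl4, which makes extremely long chains, had 1.22 and 1.02 FPKM in the WT beige libraries against 2.42 and 1.98 in the white ones (log2 difference -0.59, adjusted p = 0.00855 in limma). Elovl2 and Elovl7 did not pass the filter. Degs1, the desaturase that completes ceramide, fell by 0.62 on the log2 scale in WT beige against white (adjusted p = 0.00522). In KO-labelled cultures limma called neither Elovl4 (-0.12, adjusted p = 0.494) nor Degs1 (-0.35, adjusted p = 0.0552).

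**Figure D3:**
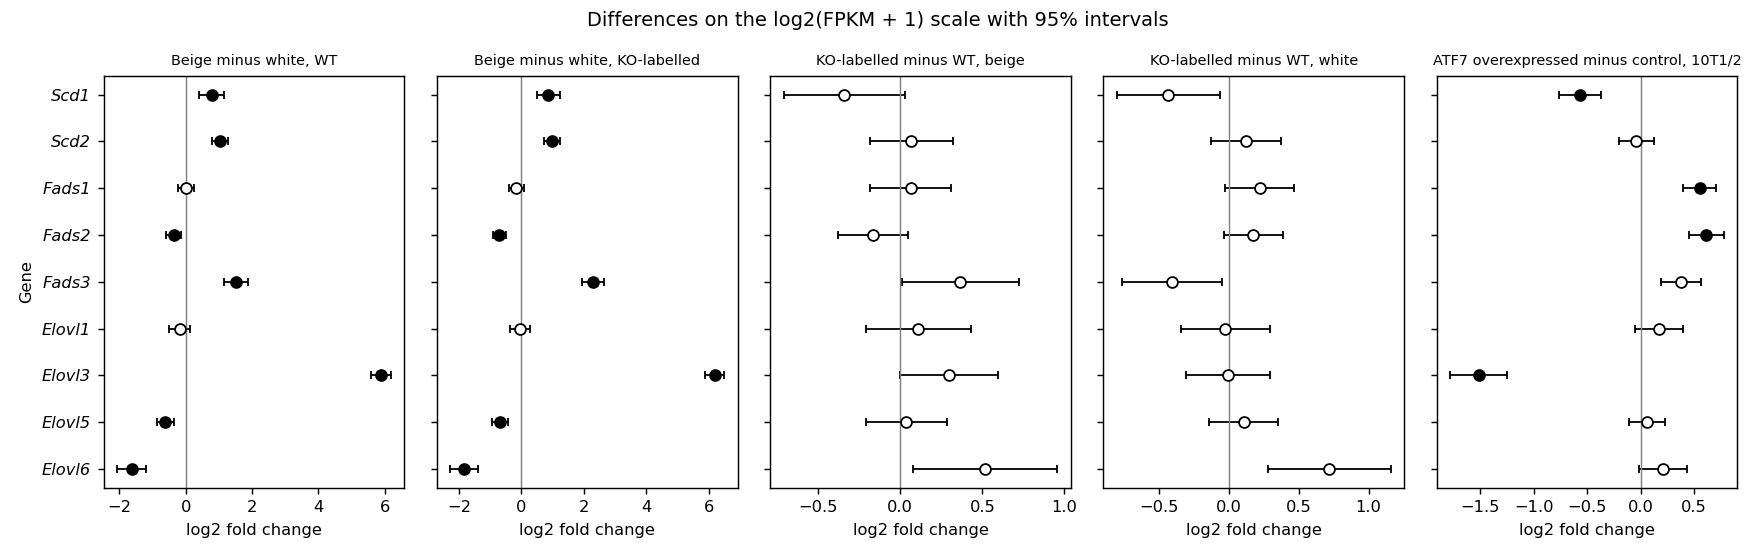
Difference of each of the 9 genes in 5 comparisons on the log2(FPKM + 1) scale, with 95% intervals from limma. Filled points passed an adjusted p of 0.05; the axes differ between panels, and no point is filled in either panel of KO-labelled against WT.

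The part that macrophage, stromal and adipocyte RNA had in these differences was not tested. All 12 macrophage markers and all 9 tested stromal markers fell in WT beige against white, and 6 of 10 adipocyte markers rose while 1, Cfd, fell. Over all genes 21.6% rose and 32.1% fell.

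Genes that supply or use the same chains changed in both directions between WT beige and white. Of 10 genes of palmitate synthesis, 3 rose and 3 fell, where 21.6% of all genes rose and 32.1% fell. Acacb, an acetyl-CoA carboxylase, rose by 2.12 (log2) and Mlycd, which removes malonyl-CoA, by 1.26, while the fatty acid synthase Fasn fell by 1.14 and the ATP citrate lyase Acly fell by 0.70. The list had a median of 0.06 against -0.10 over all genes.

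The partners of the elongation cycle reduce and dehydrate the chain after the Elovl step. Of 6, 2 rose and 3 fell, where 21.6% of all genes rose and 32.1% fell, with Hacd1 at 1.36 and Hsd17b12 at 0.73, and with Hacd4 at -1.80 and Hacd3 at -0.73. Of 5 tested genes of the cytochrome b5 chain, which brings electrons to the desaturases, Cyb5r1 rose (1.46) and Cyb5r3 (-0.75) and Cyb5a (-0.55) fell. Of 7 tested acyl-CoA synthetases, 5 rose, among them Slc27a1 (0.91) and Acsl4 (0.82), and 2 fell, among them Acsl5 (-0.46).

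Of 13 regulators of lipid synthesis, 5 rose and 4 fell, where 21.6% of all genes rose and 32.1% fell. The coactivator Ppargc1b rose by 2.08, Srebf1, whose product activates lipogenic genes, by 0.75 and the liver X receptor gene Nr1h2 by 0.43, while Rxra, the partner of these nuclear receptors, fell by 1.01. Srebf1 had 87.2 and 96.6 FPKM in the WT beige libraries against 51.6 and 57.1 in the white ones, and Fasn, a classical SREBP target, 155 and 135 against 304 and 336. Of 16 tested users of long and unsaturated chains, 6 rose and 6 fell, against the same shares of all genes. Dgat2, which makes triglyceride, fell by 2.71 and the ceramide synthases Cers5 and Cers6 fell by 1.11 and by 1.07. The lists of 5 to 16 genes had medians between -0.28 and 0.54.

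**Figure D4:**
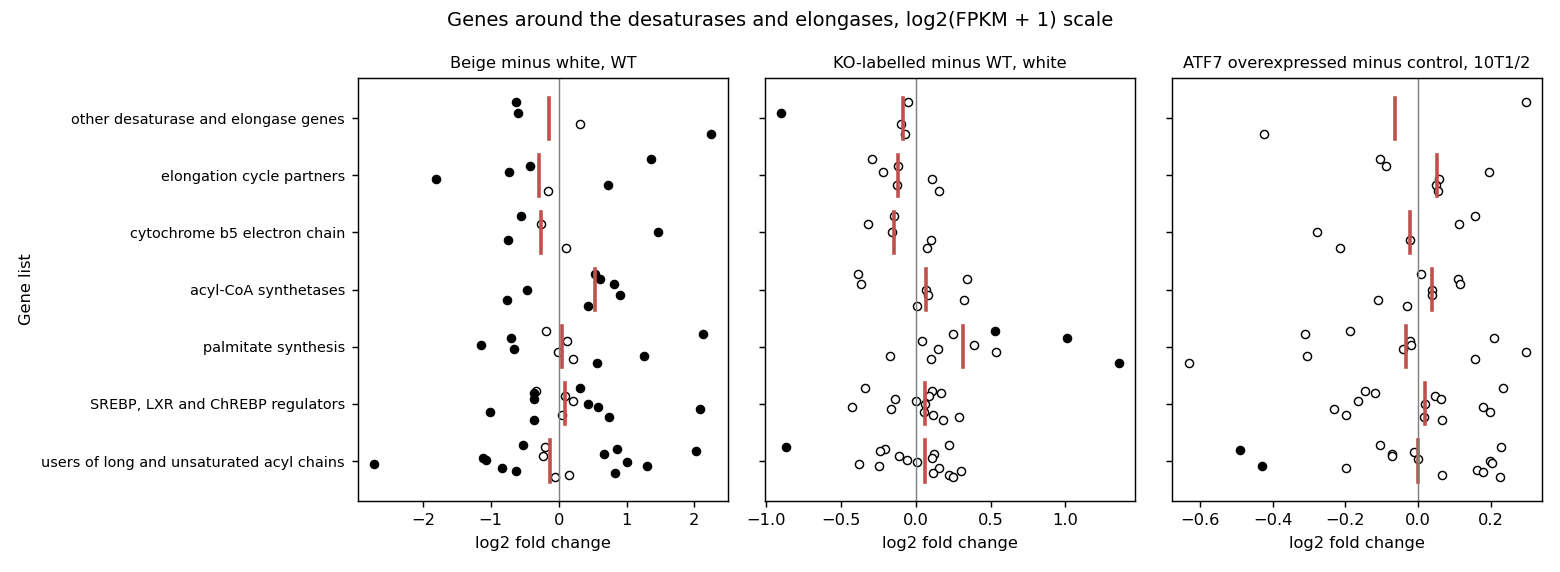
Log2 difference of each tested gene of 7 lists around the desaturases and elongases in 3 comparisons, with filled points for an adjusted p under 0.05 in limma and a red line at the median of the list. In the middle panel 3 genes of palmitate synthesis are filled on the right, Acaca, Acly and Thrsp.

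KO-labelled beige cultures differed from WT beige in none of the 9 genes by limma with an adjusted p under 0.05. Over all genes 0.0531% were called higher and 0.0974% lower. Of the 9, 2 had an unadjusted p under 0.05, against 10.3% of all genes tested, and limma without a trend also called 0. Elovl6 was 0.52 higher (unadjusted p = 0.0264, adjusted p = 0.424) and Fads3 0.37 higher (unadjusted p = 0.0457, adjusted p = 0.474), whereas the difference of Scd1 was -0.34 with a 95% interval from -0.71 to 0.03. The interval of Scd2 ran from -0.18 to 0.32 and that of Elovl5 from -0.21 to 0.28. The median of the 9 was 0.07 and that of all genes 0.04.

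Around them, none of 61 tested genes of the 7 lists was called, and 14 had an unadjusted p under 0.05, against 1160 of 11294 over all genes. Fasn had 155 and 135 FPKM in the WT libraries against 103 and 99.3 in the KO-labelled ones (log2 difference -0.51, adjusted p = 0.220). Ucp1 had 19.1 and 17.2 FPKM against 51.6 and 24.5 and was not called either (adjusted p = 0.328).

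In white cultures, too, none of the 9 genes was called between KO-labelled and WT by limma, with 1.27% of all genes called higher and 0.62% lower. After quantile normalization 50.4% of all calls were higher and after median centring 52.8%, against 67.1% in the values as deposited. Here 3 of the 9 had an unadjusted p under 0.05, against 19.9% of all genes tested, and limma without a trend called 0. Elovl6 came nearest: both KO-labelled libraries, at 15.2 and 15.1 FPKM, were above both WT libraries at 8.18 and 9.52, a difference of 0.72 (SE 0.19, 95% interval 0.28 to 1.16, adjusted p = 0.1004). It was called when all 12 libraries were put in 1 fit (adjusted p = 0.0485). Scd1 differed by -0.43 (adjusted p = 0.188) and Fads3 by -0.41 (adjusted p = 0.197), again with no overlap of the groups. The median of the 9 was 0.11 and that of all genes 0.03.

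Some genes of the palmitate synthesis list were called in the same comparison. Of its 10 genes 3 were higher in KO-labelled white and 0 lower. Over all genes 1.27% were called higher and 0.62% lower. Acly had 95.4 and 93.5 FPKM in the WT libraries against 171 and 214 in the KO-labelled ones (1.01, adjusted p = 0.0104), and Thrsp, a lipogenic nuclear protein, 35.4 and 49.7 against 107 and 111 (1.35, adjusted p = 0.00763). Acaca, the acetyl-CoA carboxylase that makes malonyl-CoA for chain growth, stood at 23.4 and 23.7 FPKM against 33.8 and 35.0 (0.53, adjusted p = 0.0339). Fasn stood at 304 and 336 FPKM against 413 and 423 and was not called (0.39, adjusted p = 0.120). The median of this list was 0.32.

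Of the remaining lists, 2 genes were called, both lower in KO-labelled white. Elovl4 had 2.42 and 1.98 FPKM in the WT libraries against 0.886 and 0.566 in the KO-labelled ones, a difference of -0.89 (adjusted p = 0.0273) near the filter of 1 FPKM. Abcd2, a peroxisomal transporter of very long chains, had 11.9 and 14.5 FPKM against 6.77 and 6.78 (-0.86, adjusted p = 0.0209). Markers of other cells moved in the same comparison: 4 of 12 macrophage markers and 1 stromal marker were called higher and 1 adipocyte marker lower. The macrophage sum was 499.5 and 545.1 FPKM in WT white and 721.3 and 765.8 in KO-labelled white, the stromal sum 705.6 to 796.9 against 901.5 to 966.1, and the adipocyte sum 4958 to 5753 against 3788 to 3889. Their part in these results was not tested.

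The interaction test of limma, which asks whether the response to rosiglitazone differed by genotype, called none of the 9 genes. In it 0.106% of all genes were called higher and 0.186% lower. An unadjusted p under 0.05 was found in 2 of the 9, against 16.8% of all genes tested, and limma without a trend called 0. These were Fads3 (0.77, SE 0.22, 95% interval 0.27 to 1.28, unadjusted p = 0.00725, adjusted p = 0.182) and Fads2 (-0.34, SE 0.13, 95% interval -0.64 to -0.04, unadjusted p = 0.0318, adjusted p = 0.254). For Fads3 both KO-labelled libraries lay above both WT libraries in beige and below them in white, and for Fads2 it was the reverse. The median of the 9 was -0.05 and that of all genes 0.01. Acly was the 1 gene of the 7 lists that was called (-1.28, adjusted p = 0.0332).

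Overexpression of ATF7 in C3H10T1/2 beige cultures was followed by lower Elovl3 and Scd1 and by higher Fads1 and Fads2. By limma, in a fit of these 4 libraries over 9981 genes, 2 of the 9 were called higher and 2 lower, where 0.431% of all genes were called higher and 1.06% lower. The median of the 9 was 0.17 and that of all genes -0.02. With small RNA genes left out, 45.3% of all calls were higher, against 28.9% in the values as deposited.

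Elovl3 fell from 27.4 and 29.0 FPKM to 10.4 and 8.19, a difference of -1.51 (SE 0.11, adjusted p = 0.00451). It kept its call without any 1 of the 4 libraries and lost it with no filter on low values (adjusted p = 0.0586). Scd1 fell from 1396 and 1393 FPKM to 905 and 978 (-0.57, SE 0.08, adjusted p = 0.0329). That call was lost without any 1 of the libraries (adjusted p 0.155 and 0.171 without either control, 0.101 and 0.0642 without either overexpressing library), with no filter (0.207) and with all 12 libraries in 1 fit (0.105). Scd2 stood at 309 and 294 FPKM in the control and at 290.1 and 295 with overexpression, and its interval ran from -0.21 to 0.12.

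Fads1 stood at 44.2 FPKM in both control libraries and at 67.2 and 63.4 with ATF7 overexpressed (0.55, SE 0.06, adjusted p = 0.0179). Fads2, its partner, stood at 39.5 and 40.7 against 64.0 and 59.8 (0.61, SE 0.07, adjusted p = 0.0152). Either call was lost without either overexpressing library (adjusted p 0.0976 and 0.0642 for Fads1, 0.0897 and 0.0555 for Fads2) and with no filter (0.0687 and 0.0680). Fads1 was also lost without the first control library (0.0549). Fads3 stood at 35.3 and 38.9 FPKM against 50.3 and 46.5 and did not pass (0.38, adjusted p = 0.0853), so all 3 Fads genes had both overexpressing libraries above both controls.

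The remaining elongases did not pass. Elovl5 stood at 43.7 and 44.1 FPKM in the control and at 47.9 and 43.6 with overexpression, with a 95% interval of -0.11 to 0.23. Elovl6 (0.21, adjusted p = 0.331) and Elovl1 (0.17, adjusted p = 0.421) had no overlap between the groups. Of 58 tested genes of the lists, 0 were called higher and 2 lower, where 0.431% of all genes were called higher and 1.06% lower. The 2 were Dgat2 (-0.43, adjusted p = 0.0341 by limma) and the peroxisomal transporter Abcd3 (-0.49, adjusted p = 0.0282). Of the 58, 22 had an unadjusted p under 0.05, against 17.2% of all genes tested. Elovl3 thus fell in a comparison in which Ucp1 (8.71 and 6.82 FPKM against 1.08 and 0.820) was called lower too. The adipocyte marker sum, which mainly follows Fabp4, was 12796 and 13021 FPKM in the control and 12616 and 13734 with overexpression. Of its 10 genes, 1 was called higher and 0 lower. Macrophage markers were near 0 in these libraries.

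In the KO-labelled primary beige cultures, Elovl3 was 0.30 higher than in WT (adjusted p = 0.486) and Scd1 0.34 lower (adjusted p = 0.510). Scd1 was thus lower with ATF7 overexpressed and had a negative difference in KO-labelled cultures as well, in separate cell systems that share no libraries; the latter did not pass the test.

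Genes whose pattern over the 12 libraries was most like that of each member are given as a description, by Pearson's r of log2(FPKM + 1). The libraries share 3 culture types with their cell makeup, so a high r can come from the culture types alone. For Scd1 these were Stxbp2 (0.988), Fah (0.986) and Cdr2 (0.979). Scd2 was most like Stbd1 (0.990), Shmt2 (0.989) and Plin5 (0.987). Elovl3 was most like the monocarboxylate transporter gene Slc16a1 (0.993), Tmem143 (0.992) and the cytochrome oxidase subunit gene Cox5a (0.991).

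For Fads3 the 3 most alike genes were Grina (0.986), Ccdc47 (0.984) and Cdk2ap2 (0.978). Fads1 and Fads2 were most like genes that were highest with ATF7 overexpressed, Gbp2b (0.973), Ccser2 (0.972) and Scube2 (0.971) for Fads1 and Ly6h (0.987), Cfap36 (0.986) and Tm9sf4 (0.983) for Fads2. Elovl5 was most like Gpx8 (0.993) and Mest (0.992), both highest in C3H10T1/2. Elovl6 was most like Chpf (0.983), Lrrk1 (0.982) and Adgra3 (0.982), highest in KO-labelled white, and the highest values for Elovl1 were 0.912 (Gfod2), 0.906 (Tax1bp3) and 0.899 (Tm9sf4).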

How the data were processed

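FPKM values per gene were deposited by the authors, 1 table per library, per the file headers, on the mm10 build (GRCm38) per the submitters' processing notes. How reads were aligned, quantified and annotated is not stated in the sources used here. Per the labels' protocols, the RNA was freed of ribosomal RNA, libraries kept the strand, and both ends were sequenced for 36 bases. Read counts were not analysed here, so depth is unknown. Files were joined by gene name and locus, and 1 was added to the deposited starts, which count from 0. Groups came from the labels, which give no batch.

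Because FPKM is not a count, limma (version 3.58.1, eBayes, trend on, R version 4.3.3) was run on log2(FPKM + 1). A gene was tested if 2 or more libraries of the fit reached 1 FPKM. Tests were two-sided, with Benjamini-Hochberg adjustment over all genes tested and a threshold of 0.05. One coefficient per group was fitted to the 8 primary libraries (11294 genes, 4 residual degrees of freedom) and, separately, to the 4 C3H10T1/2 libraries (9981 genes, 2 residual degrees of freedom). The test was tried on simulated data. Ratios and shares were compared between beige and white, with genotypes pooled, by exact permutation tests (scipy 1.17.1). Alternatives were another pseudocount (0.1), no filter, quantile normalization, median centring, leaving out 1416 small RNA entries, a replicate block, limma without trend, all 12 libraries in 1 fit, and leaving out each library.

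The members and the 12 gene lists (116 genes, all matched) were chosen with earlier results of these data known. Named beside the members are up to 4 genes per pathway list with the lowest p in each comparison, the other family genes, marker genes of cell types (of these, Cfd was chosen after its values were seen), the 3 most alike genes per member (leaving out predicted, pseudo and small RNA genes and those with a range under 1 log2), and Atf7 and Ucp1 as checks. Some genes that this rule takes are left out of the text. Shared windows of 36 bases were counted in GENCODE vM21 transcripts.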

Additional observations from a re-analysis of the deposited data

How the results depend on the processing

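Of the recomputed differences of single genes, 633 kept their direction and side of the threshold, 21 lost a call, 3 gained one, and 27, all of genes not called, changed sign. The cause was not tested unless stated. The 4 calls with ATF7 overexpressed fell to 0 with no filter (more genes tested), to 2 with the replicate block (Scd1 at an adjusted p of 0.109 and Fads1 at 0.0502 in limma) and to between 1 and 3 without 1 library, where a lone library is assumed to vary like the other group. The 0 calls between KO-labelled and WT white became 1 with all 12 libraries in 1 fit. Without 1 library the exact test of a share cannot go below 0.0571. The beige minus white difference then ranged from 69.0 to 70.6 percentage points for Elovl3 and from -22.6 to -18.5 for Elovl6. Whether replicate numbers pair the libraries is not in the labels and cannot be settled with 2 numbers only. Deviations of same-numbered libraries correlated between -0.06 and 0.15 in the groups compared. The values were 0.13 between WT and KO-labelled beige and 0.15 between WT and KO-labelled white. The block changed no other count of members.

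The differences that changed sign follow. With a pseudocount of 0.1, Elovl3 in KO-labelled minus WT white was 0.00083. After quantile normalization, Fads1 was -0.032 and Elovl5 -0.043 in KO-labelled minus WT beige, and Fads1 was -0.062 in WT beige minus white. After median centring, Elovl1 was 0.063 in KO-labelled beige minus white. With small RNA genes left out, Fads1 was -0.084 in WT beige minus white and Scd2 was 0.021 with overexpression. Without 1 library, KO-labelled minus WT beige ranged from -0.011 to 0.14 for Fads1 and from -0.087 to 0.16 for Elovl5. WT beige minus white ranged from -0.093 to 0.096 for Fads1 and from -0.37 to 0.0080 for Elovl1, and KO-labelled beige minus white from -0.13 to 0.037 for Elovl1. KO-labelled minus WT white ranged from -0.22 to 0.17 for Elovl1 and from -0.10 to 0.083 for Elovl3. The interaction ranged from -0.032 to 0.22 for Scd1, from -0.12 to 0.014 for Scd2, from -0.054 to 0.33 for Elovl1, from -0.19 to 0.056 for Elovl5 and from -0.54 to 0.14 for Elovl6. Overexpression minus control ranged from -0.0094 to 0.12 for Elovl5.

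Over all genes, the calls between KO-labelled and WT white went from 213 to 54 with a pseudocount of 0.1, 122 with no filter, 387 after quantile normalization, 642 with all 12 libraries in 1 fit and 23 to 277 without 1 library. Those with overexpression went from 149 to 22 with no filter, 88 with the block, 91 without a trend and 17 to 138 without 1 library. Those between KO-labelled and WT beige went from 17 to 27 with the block, 26 with all 12 libraries and 5 to 20 without 1 library. Those of the interaction went from 33 to 20 with a pseudocount of 0.1, 116 with all 12 libraries and 16 to 43 without 1 library. Every member stood at 1 locus, so summing loci changed no value.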
